A study of Homo sapiens with 6 samples.

Results

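Aminoacyl-tRNA synthetases are the enzymes that load each tRNA with its amino acid, and most amino acids have separate nuclear genes for the enzyme of the cytosol and that of the mitochondrion. The set described here held 39 of the 58825 genes in the data, found by gene symbol. It comprised 20 cytosolic synthetases, 16 mitochondrial synthetases, whose symbols end in 2, and 3 scaffold proteins of the multisynthetase complex, AIMP1, AIMP2 and EEF1E1. AIMP2 was placed with the scaffolds despite its final 2. All 39 were found, and all 39 passed the filter on low counts, with between 371 and 39778 estimated counts per library.

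The RNA came from NCI-H460, a human cell line from a large cell lung carcinoma that the labels call an adenocarcinoma line. Cells had been infected with lentivirus carrying either a control hairpin (NC-shRNA, genotype control, 3 libraries) or a hairpin against PRMT5 (PRMT5-shRNA, 3 libraries). The sample titles call the control libraries GFPkd, while the paper speaks of a control shRNA and names no target for it. The labels do not say which of the study's hairpins against PRMT5 was sequenced. The total of estimated counts was 69606034, 70518401 and 62125927 with NC-shRNA, against 53531257, 69077084 and 56507279 with PRMT5-shRNA. The paper calls the libraries biological replicates, but the labels do not say whether they came from separate cultures, so each p-value measures only the spread between these libraries.

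As background, a synthetase joins its amino acid to the matching tRNA at the expense of ATP, and the charged tRNA goes to the ribosome. The mitochondrion translates its own few mRNAs, for subunits of the respiratory chain, with a separate set of charged tRNAs. When charged tRNA or amino acids run short, the kinase GCN2 phosphorylates the initiation factor eIF2, translation of the transcription factor ATF4 goes up, and ATF4 turns on genes of amino acid synthesis, amino acid transport and many cytosolic synthetases. PRMT5 is an arginine methyltransferase that acts on histones and on proteins of RNA splicing.

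The cell line was checked by its markers. All 4 epithelial genes examined (KRT8, KRT18, KRT19 and EPCAM) were measured, with summed FPKM (fragments scaled by transcript length and library size) of 313, 299 and 282 with NC-shRNA and 269, 264 and 276 with PRMT5-shRNA. KRT18 was the most abundant of them in NC-shRNA cells at 151 FPKM, and EPCAM had 0.50. All 4 had negative log2 fold changes (PRMT5-shRNA minus NC-shRNA) on counts. The groups did not overlap for KRT8 and EPCAM, as for 10.7% of all genes tested in that direction. KRT8 alone had an unadjusted p under 0.05 in edgeR (6.29% of all genes tested were so lower). The 4 log2 fold changes ranged from -0.34 to -0.054, although the mean FPKM of KRT19 was 36.5 with NC-shRNA and 36.7 with PRMT5-shRNA. Of 8 genes of blood, endothelium, fibroblasts and liver, CD3E and ALB had 0 counts in all 6 libraries and PTPRC had 0 in 4. The other 5 passed the filter, and all 5 had positive log2 fold changes, the endothelial gene PECAM1 3.0, the fibroblast gene COL3A1 0.87, CD14 0.55, CDH5 0.30 and COL1A1 0.098. PECAM1, COL3A1 and CDH5 had an unadjusted p under 0.05 in edgeR, as 6.54% of all genes tested did in that direction. DESeq2 called PECAM1 and COL3A1 higher at an adjusted p under 0.05, beside 1.81% of the genes to which it gave an adjusted p. The counts of PECAM1, singled out after its values were seen, were 30, 5 and 8 in NC-shRNA and 104, 100 and 109 in PRMT5-shRNA cells. The summed FPKM of the 8 was 4.07, 4.38 and 4.08 with NC-shRNA and 5.84, 6.03 and 6.59 with PRMT5-shRNA, and CDH5 was the most abundant in NC-shRNA cells at 1.38 FPKM. The part of these markers in the differences described here was not tested.

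PRMT5 itself (ENSG00000100462, chromosome 14, 22920511 to 22929585, minus strand of GRCh38 in GENCODE release 29) had 143, 127 and 128 CPM with NC-shRNA and 45.8, 45.6 and 38.3 CPM with PRMT5-shRNA. CPM here are counts scaled by library size, with library sizes adjusted by edgeR's TMM method. Every PRMT5-shRNA library was far below every NC-shRNA library. The log2 fold change was -1.62 (standard error, SE, 0.0943, adjusted p = 0.00630 by the quasi-likelihood test of edgeR), which leaves 32.6% of the NC-shRNA level. A lower level in every cell and a loss in only some of the cells cannot be told apart in RNA from whole cultures. The exact two-sided permutation test gave p = 0.10, the smallest that 3 libraries against 3 allow, and this limit held for every member below.

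The members spanned a wide range of levels in NC-shRNA cells, and the cytosolic enzymes stood above the mitochondrial ones. On the FPKM scale, which corrects for gene length, the median level was 31.0 for the cytosolic genes, 6.31 for the mitochondrial genes and 12.2 for the scaffolds. EPRS, whose protein charges both glutamic acid and proline tRNAs, was the most abundant member at 80.4 ± 7.82 FPKM (SD, n = 3), and PARS2, the mitochondrial enzyme for proline, the least at 2.26 ± 0.153. Those 2 levels did not come near each other in any library. IARS2 stood out in its class at 79.6 ± 2.19 FPKM, within the spread of EPRS and above the cytosolic isoleucine enzyme IARS at 60.9 ± 4.61. At the low end of the cytosolic class, CARS had 8.45 ± 0.891 FPKM, about the level of MARS2 at 8.59 ± 0.177.

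**Figure D1:**
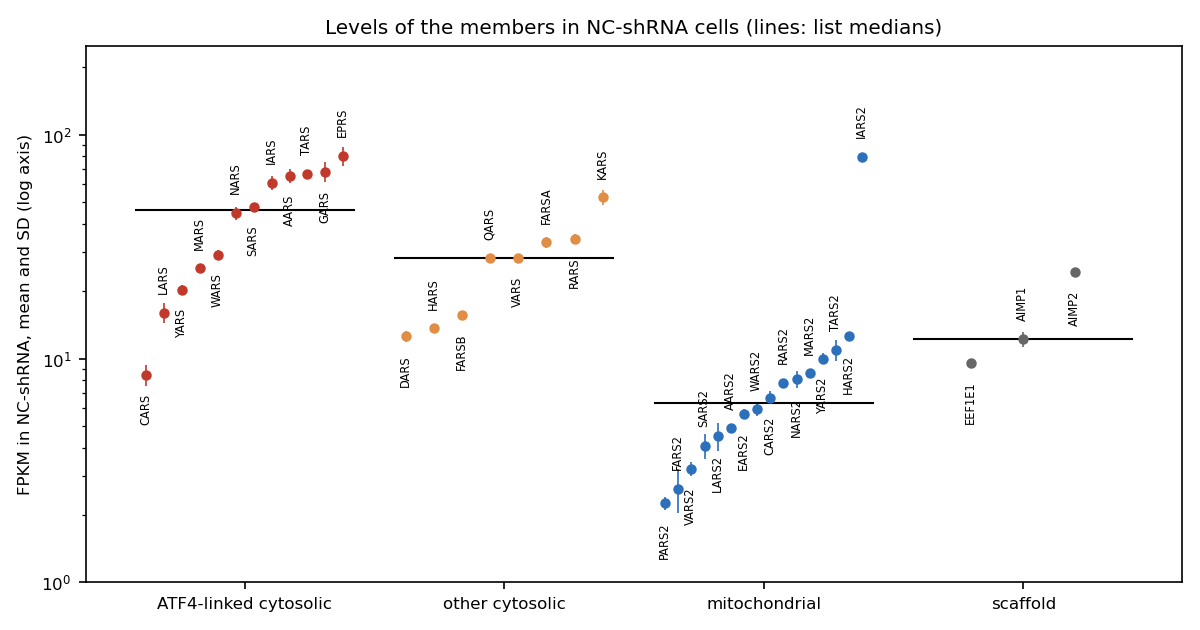
Level of each member in NC-shRNA cells as FPKM on a log axis, with points for means, bars for the SD of 3 libraries and black lines for list medians. The mitochondrial genes lie mostly under the cytosolic ones, with medians of 6.31 and 31.0 FPKM, and IARS2 is the highest mitochondrial gene at 79.6 FPKM, while HARS2, TARS2, YARS2 and MARS2 also lie above CARS, the lowest cytosolic gene at 8.45 FPKM.

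Summed over a class, the 2 pools of enzyme transcripts differed in opposite directions. The summed FPKM of the cytosolic genes was 725, 748 and 778 with NC-shRNA and 848, 829 and 848 with PRMT5-shRNA. That of the mitochondrial genes was 175, 177 and 179.8 with NC-shRNA and 170.4, 172 and 167 with PRMT5-shRNA. The cytosolic sum was thus higher in every PRMT5-shRNA library than in any NC-shRNA library, and the mitochondrial sum was lower, with a smaller gap. The ATF4-linked cytosolic genes defined below summed to 500, 535 and 564 with NC-shRNA and 648, 624 and 654 with PRMT5-shRNA. The other cytosolic genes summed to 226, 214 and 214 with NC-shRNA and 200, 205 and 195 with PRMT5-shRNA. That last sum was lower in every PRMT5-shRNA library, as in the mitochondrial class. The summed FPKM of the scaffolds was 47.7, 44.3 and 46.0 with NC-shRNA and 42.5, 44.5 and 45.1 with PRMT5-shRNA, and these values overlapped.

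By the quasi-likelihood test of edgeR, 0 of the 39 members had an adjusted p under 0.05, where 14 of 20295 genes, 0.0690%, did so. At an unadjusted p under 0.05 in the same test, 8 members were higher and 10 were lower in PRMT5-shRNA cells, beside 6.54% and 6.29% of all genes tested. DESeq2 called 6 members higher and 2 lower at an adjusted p under 0.05, beside 1.81% and 1.36% of the 16723 genes to which it gave an adjusted p. The likelihood ratio test of edgeR called 1 member and 0.907% of all genes, and limma on log2(FPKM + 1) called 0 members and 0.102% of the genes it tested. The direction of each member is therefore given as a measured value, and "past the unadjusted threshold" below means an unadjusted p under 0.05 in the quasi-likelihood test.

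Among the 20 cytosolic enzymes, 7 (35.0%) were higher past the unadjusted threshold, against 6.54% of all genes tested, and 5 (25%) were lower, against 6.29%. The 2 groups of libraries did not overlap for 8 higher and 5 lower cytosolic enzymes, where 11.0% and 10.7% of all genes showed this. DESeq2 called 5 of the 20 higher and 1 lower, beside 1.81% and 1.36% of all genes. Among the 16 mitochondrial enzymes, 1 was higher and 4 (25%) were lower past the unadjusted threshold, and DESeq2 called 1 higher and 1 lower. The groups did not overlap for 1 higher and 7 lower mitochondrial enzymes. The median log2 fold change was 0.099 over the cytosolic class and -0.14 over the mitochondrial class, beside 0.0075 over all genes tested.

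**Figure D2:**
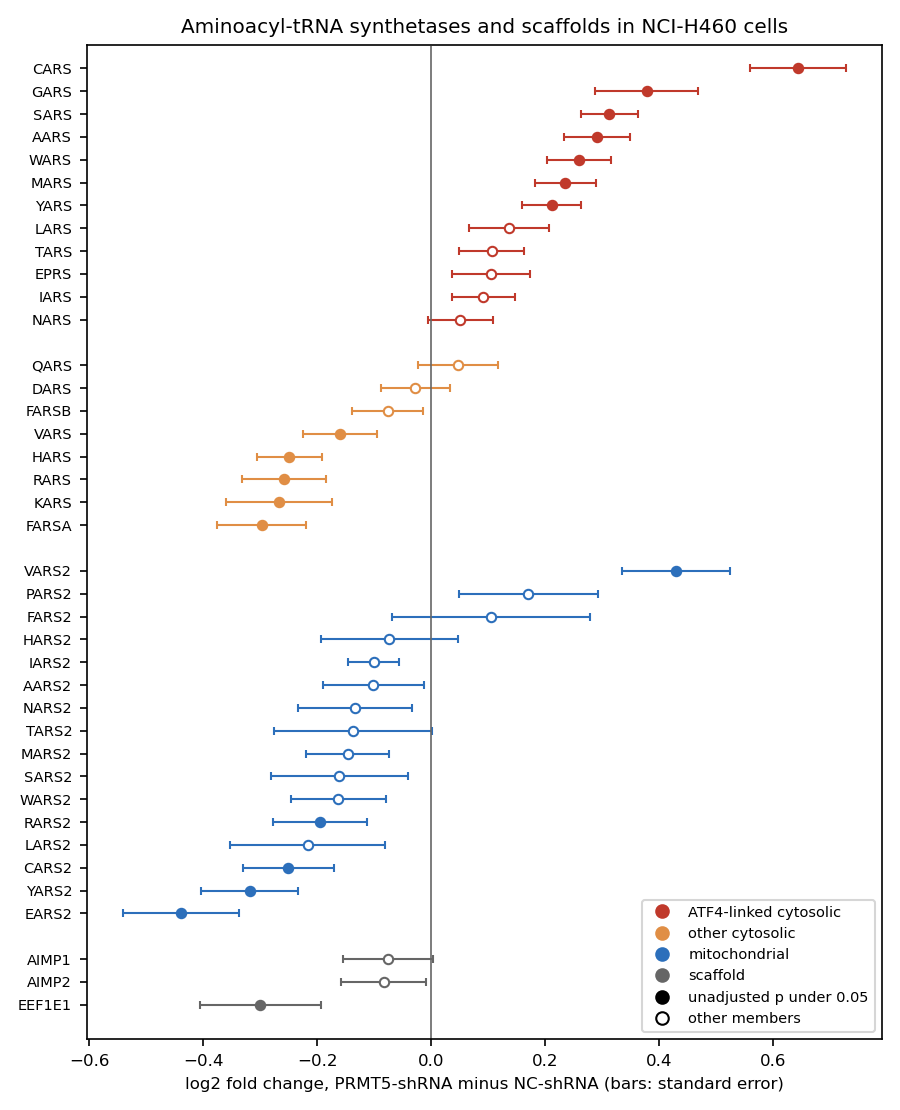
Log2 fold change of each member, PRMT5-shRNA minus NC-shRNA (x axis), with bars for the standard error of edgeR's fit to 3 and 3 libraries, and filled points for an unadjusted p under 0.05. The 12 ATF4-linked cytosolic genes all lie right of 0, while 7 of the 8 other cytosolic genes and 13 of the 16 mitochondrial genes lie left of it.

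The cytosolic class was not uniform. It was divided by a list, written from general knowledge, of 12 synthetase genes described as ATF4 targets (AARS, CARS, EPRS, GARS, IARS, LARS, MARS, NARS, SARS, TARS, WARS and YARS), against the 8 others (DARS, FARSA, FARSB, HARS, KARS, QARS, RARS and VARS). All 12 ATF4-linked genes had positive log2 fold changes, with a median of 0.22, and 7 of them passed the unadjusted threshold, beside 6.54% of all genes. All 12 were positive in each of 19 alternative fits. Of the 8 others, 7 had negative values, with a median of -0.20, and 5 passed the threshold as lower, beside 6.29% of all genes. Across all genes tested, 51.2% were above 0. No test of these lists was made. They were drawn up with earlier results of these data known, so the division is not independent of those results.

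The promoters of the members were searched for TGATGNAA, the C/EBP-ATF response element that ATF4 binds with a C/EBP partner, on both strands. Promoters were the 300 bases from 250 before to 50 after each transcription start in RefSeq (GRCh38.p14), and the table of promoters used held 33 of the 39 members. It lacked AARS2, DARS, LARS, VARS, VARS2 and YARS. The letters were found in 7 of the 10 ATF4-linked genes with an entry, in none of the 6 other cytosolic genes, in 1 of 14 mitochondrial genes (YARS2) and in none of the 3 scaffolds. Of the stress response genes described later, 6 of 27 with an entry (22.2%) held them. Of the accessory genes described later, 0 of 15 did. A gene counts here with a match in any of its promoters, and CARS, GARS and TARS each matched in 1 of 2. Counted the same way, 4.46% of all 27305 gene symbols held the letters, and 3.62% of all 35116 promoters did. The windows below read 5′ to 3′ along the gene, with the match in capitals and 8 bases on each side, and they are shown for every member with a match. They lie at chr16:70289678-70289701 (minus strand) for AARS, chr11:3057410-3057433 (minus strand) for CARS, chr7:30594837-30594860 (plus strand) for GARS, chr9:92293695-92293718 (minus strand) for IARS and chr12:57488056-57488079 (plus strand) for MARS. The remaining windows lie at chr18:57621807-57621830 (minus strand) for NARS, chr5:33440959-33440982 (plus strand) for TARS and chr12:32756079-32756102 (minus strand) for YARS2.
AARS: tctcgcagTTGCATCAgccaagtt
CARS: ggcggcggTTGCATCAgattctag
GARS: cgcggcgaTTTCATCAtgctccga
IARS: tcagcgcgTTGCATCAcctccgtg
MARS: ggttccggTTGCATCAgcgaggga
NARS: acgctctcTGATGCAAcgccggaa
TARS: cctttcgaTTGCATCAgctggtcc
YARS2: cacactgcTGATGGAAaaattaag
In 6 of the 7 cytosolic genes the match was TGATGCAA or, on the other strand, TTGCATCA, which 0.866% of all promoters hold, while GARS and YARS2 had other letters at the free positions. The first letter of the match lay 2 bases before the start in CARS, 4 in MARS, 13 in IARS and 33 in GARS, and farther off, 187 in AARS and 197 in YARS2. It lay after the start in TARS, by 2 bases, and in NARS, by 14. EPRS, SARS and WARS had no match, which says only that these letters are not in their windows, and NARS, IARS and TARS, with a match, did not pass the unadjusted threshold. A match is a description, not a site or a cause. The ATF4-linked list was written from general knowledge of ATF4 targets, and with earlier results of these data known. Its share is therefore not independent of that knowledge.

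CARS, the cytosolic enzyme for cysteine (ENSG00000110619, chromosome 11, 3000922 to 3057613, minus strand), differed most among the 39 members. It had 91.1, 106 and 107 CPM with NC-shRNA and 149, 158 and 168 CPM with PRMT5-shRNA. All 3 PRMT5-shRNA libraries were well above all 3 NC-shRNA libraries, of which replicate 1 was the lowest. The log2 fold change was 0.64 (SE 0.0838, adjusted p = 0.0900 in edgeR), a level 56.3% higher. On the FPKM scale the mean went from 8.45 ± 0.891 to 13.8 ± 0.894 (SD, n = 3 each), so that CARS remained among the less abundant cytosolic members.

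GARS, a single gene whose transcripts make the glycine enzyme of both compartments (ENSG00000106105, chromosome 7, 30594681 to 30634033, plus strand), had 294, 351 and 328 CPM with NC-shRNA and 459, 387 and 418 CPM with PRMT5-shRNA. The groups did not overlap, and PRMT5-shRNA replicate 2 was the nearest to the NC-shRNA libraries. Its log2 fold change was 0.38 (SE 0.0900, adjusted p = 0.212 in edgeR). SARS, the cytosolic serine enzyme (ENSG00000031698, chromosome 1, 109213918 to 109238169, plus strand), had 224, 214 and 217 CPM with NC-shRNA and 269, 265 and 278 CPM with PRMT5-shRNA. Its libraries were tight within each group and far apart between groups, with a log2 fold change of 0.31 (SE 0.0504, adjusted p = 0.128 in edgeR). SARS had the smallest p of the cytosolic class after CARS.

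AARS, which charges alanine tRNA and edits mischarged serine, had 343, 337 and 375 CPM with NC-shRNA and 429, 437 and 424 CPM with PRMT5-shRNA. Every PRMT5-shRNA library was higher, with a log2 fold change of 0.29 (adjusted p = 0.184 in edgeR). WARS, the tryptophan enzyme, known also as a gene induced by interferon, had 214, 220.3 and 228 CPM with NC-shRNA and 259, 277 and 256 CPM with PRMT5-shRNA. The groups were again apart, at a log2 fold change of 0.26 (adjusted p = 0.196 in edgeR). MARS, which charges both initiator and elongator methionine tRNA in the cytosol, had 217, 204 and 216 CPM with NC-shRNA and 243, 256 and 249.6 CPM with PRMT5-shRNA. These values gave a log2 fold change of 0.24 (adjusted p = 0.203 in edgeR) and did not overlap. MARS shares 982 bases of its span with DDIT3 on the opposite strand, which had a log2 fold change of 1.28. The paper names a stranded library kit, but not whether the counting used strand, so the assignment of reads in the shared stretch is uncertain. YARS, the cytosolic tyrosine enzyme, had 194, 197 and 205 CPM with NC-shRNA and 226, 227 and 236 CPM with PRMT5-shRNA. Here too every PRMT5-shRNA library exceeded every NC-shRNA library, by 0.21 on the log2 scale (adjusted p = 0.218 in edgeR).

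The remaining 5 ATF4-linked genes, EPRS, IARS, LARS, NARS and TARS, had log2 fold changes from 0.051 to 0.14 and did not pass the unadjusted threshold. EPRS had 468, 520.4 and 543 CPM with NC-shRNA and 548, 531 and 568 CPM with PRMT5-shRNA. NC-shRNA replicate 1 was the lowest EPRS library and the other libraries overlapped. In IARS the groups did not overlap, but the gap was small next to the spread of the NC-shRNA libraries. These 5 had a median of 60.9 FPKM in NC-shRNA cells, while CARS, with the greatest difference, had the lowest level of the 12. Level did not separate the 2 sets, since GARS and AARS, which passed, had 68.1 and 65.5 FPKM and LARS, which did not, had 16.0.

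The other 8 cytosolic enzymes differed mostly the opposite way. KARS, which like GARS serves both compartments from a single gene and charges lysine tRNA (ENSG00000065427, chromosome 16, 75627474 to 75648643, minus strand), had 283, 242 and 239 CPM with NC-shRNA and 218, 226 and 191 CPM with PRMT5-shRNA. NC-shRNA replicate 1 was high and PRMT5-shRNA replicate 3 was low, yet the groups did not overlap. The log2 fold change was -0.27 (SE 0.0936, adjusted p = 0.319 in edgeR), so that the pair of genes shared by both compartments, GARS and KARS, pointed in opposite directions. Without NC-shRNA replicate 1 the value of KARS was -0.19 and without PRMT5-shRNA replicate 3 it was -0.20, and neither passed the unadjusted threshold.

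HARS, the cytosolic histidine enzyme (ENSG00000170445, chromosome 5, 140673904 to 140691862, minus strand), had 127, 124 and 117 CPM with NC-shRNA and 102, 105 and 103 CPM with PRMT5-shRNA. The PRMT5-shRNA libraries were nearly equal and all below the NC-shRNA libraries, at a log2 fold change of -0.25 (SE 0.0569, adjusted p = 0.203 in edgeR and 0.0335 in DESeq2). HARS was the only cytosolic member that DESeq2 called lower. VARS, the valine enzyme, which associates with elongation factor eEF1, had 201, 197 and 192 CPM with NC-shRNA and 182, 184 and 163 CPM with PRMT5-shRNA. The groups did not overlap, but the difference of -0.16 on the log2 scale (adjusted p = 0.369 in edgeR) did not pass the unadjusted threshold in 10 of 19 alternatives. FARSA and RARS, named after their values were seen, completed the 5 lower genes. FARSA, the alpha subunit of the phenylalanine enzyme, had 104, 92.5 and 91.5 CPM with NC-shRNA and 73.4, 82.5 and 78.4 CPM with PRMT5-shRNA. Its log2 fold change was -0.30, while FARSB, the beta subunit of the same tetramer, stood at -0.077 with overlapping groups. RARS, the arginine enzyme, had 151, 134 and 134 CPM with NC-shRNA and 123, 113 and 114 CPM with PRMT5-shRNA, a log2 fold change of -0.26. The groups of both genes were apart, and in both NC-shRNA replicate 1 was the highest library. Of the 3 others, DARS, FARSB and QARS, none passed the unadjusted threshold, and their log2 fold changes lay between -0.077 and 0.047. That of DARS was -0.028 on counts and 0.029 on log2(FPKM + 1), so its sign changed with the unit.

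**Figure D3:**
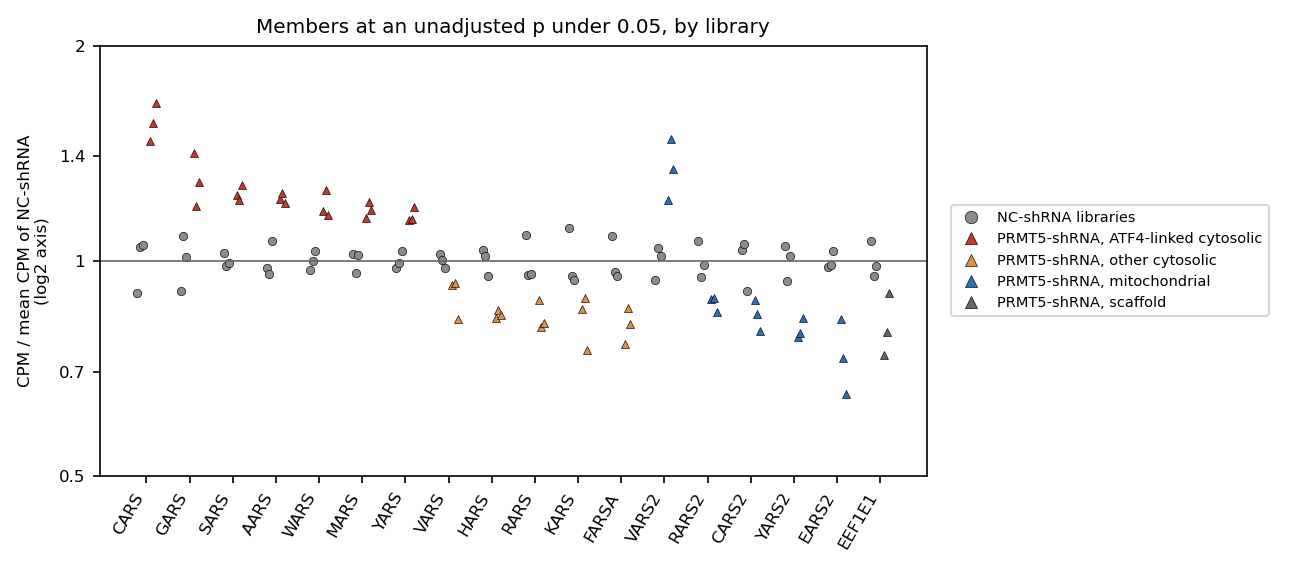
CPM of each member past an unadjusted p of 0.05, divided by its mean in NC-shRNA cells, on a log2 axis, with circles for the 3 NC-shRNA libraries and triangles for the 3 PRMT5-shRNA libraries. The groups are apart for all 18 genes, with CARS and VARS2 highest and EARS2 lowest.

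The mitochondrial class leaned lower, with 13 of 16 log2 fold changes below 0, and between 12 and 14 in the alternative fits, where HARS2 and FARS2 changed sign with 1 library left out. EARS2, which charges glutamic acid tRNA in the mitochondrion and also loads glutamic acid onto glutamine tRNA for later amidation (ENSG00000103356, chromosome 16, 23522014 to 23557731, minus strand), had 37.9, 38.2 and 39.9 CPM with NC-shRNA and 32, 28.3 and 25.2 CPM with PRMT5-shRNA. The NC-shRNA libraries were nearly equal and all PRMT5-shRNA libraries were lower and more spread. The log2 fold change of -0.44 (SE 0.102, adjusted p = 0.205 in edgeR and 0.0152 in DESeq2) was the lowest of the 39 members. EPRS, which charges glutamic acid tRNA in the cytosol, stood at 0.11, and between 0.046 and 0.17 in 19 alternatives. EARS2 lay between -0.53 and -0.32 in them.

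YARS2, the mitochondrial tyrosine enzyme, had 26.9, 24.0 and 26.0 CPM with NC-shRNA and 20.1, 20.3 and 21.3 CPM with PRMT5-shRNA. Its PRMT5-shRNA libraries were close together and all lower, with a log2 fold change of -0.32 (adjusted p = 0.245 in edgeR). It shares 18161 bases of span with DNM1L on the opposite strand, which had a log2 fold change of 0.33. CARS2, the mitochondrial cysteine enzyme, had 86.6, 88.3 and 76.0 CPM with NC-shRNA and 73.7, 70.4 and 66.8 CPM with PRMT5-shRNA. The lowest NC-shRNA library, replicate 3, lay just above the highest PRMT5-shRNA library, and the log2 fold change was -0.25 (adjusted p = 0.297 in edgeR). RARS2, the mitochondrial arginine enzyme, named after its values were seen as the last of the 4 lower genes, had 29.3, 26.2 and 27.2 CPM with NC-shRNA and 24.4, 24.5 and 23.4 CPM with PRMT5-shRNA. Its difference of -0.20 was the weakest of the 4, and it missed the unadjusted threshold in 15 of 19 alternatives, against 4 of 19 for CARS2.

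VARS2, the mitochondrial valine enzyme (ENSG00000137411, chromosome 6, 30908242 to 30926459, plus strand), went against its class. It had 30.6, 33.9 and 33.0 CPM with NC-shRNA and 39.5, 48.1 and 43.7 CPM with PRMT5-shRNA. Every PRMT5-shRNA library was higher, with a log2 fold change of 0.43 (SE 0.0944, adjusted p = 0.196 in edgeR and 0.0146 in DESeq2). VARS2 shares 5865 bases of its span with GTF2H4, a subunit gene of transcription factor TFIIH, on the same strand, and a read there may be counted for either gene. GTF2H4 had 27.1, 28.2 and 25.1 CPM with NC-shRNA and 15.8, 13 and 8.47 CPM with PRMT5-shRNA, a log2 fold change of -1.11. The 2 genes thus differed in opposite directions, and their sum was 57.6, 62.1 and 58.1 CPM with NC-shRNA and 55.3, 61.1 and 52.1 CPM with PRMT5-shRNA. The sums overlapped, unlike VARS2 alone. The value of VARS2 is uncertain for this reason, and the division of reads was not tested.

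Of the other 11 mitochondrial genes, 9 had negative and 2 positive log2 fold changes, from -0.22 to 0.17, and none passed the unadjusted threshold. MARS2, the mitochondrial methionine enzyme, had 31.1, 31.6 and 30.2 CPM with NC-shRNA and 27.5, 27.3 and 29.1 CPM with PRMT5-shRNA. WARS2, the tryptophan enzyme, had 26.3, 29.2 and 26.3 CPM with NC-shRNA and 24.5, 25.1 and 23.5 CPM with PRMT5-shRNA. In both, the groups did not overlap, with log2 fold changes of -0.15 and -0.16. SARS2, the serine enzyme, had 16.1, 13.9 and 17.5 CPM in NC-shRNA and 15.2, 13.4 and 13.8 CPM in PRMT5-shRNA cells. AARS2, the alanine enzyme, had 31.3, 30.7 and 29.6 CPM in NC-shRNA and 27.6, 31.2 and 26.6 CPM in PRMT5-shRNA cells. The groups of these 2 overlapped, through PRMT5-shRNA replicate 1 of SARS2 and replicate 2 of AARS2, and the log2 fold changes were -0.16 and -0.10. HARS2, the mitochondrial histidine enzyme, had 57.3, 57.4 and 53.1 CPM in NC-shRNA and 61.1, 54.1 and 44.4 CPM in PRMT5-shRNA cells. Its PRMT5-shRNA libraries lay on both sides of the NC-shRNA libraries, and its log2 fold change went from -0.073 to 0.041 without PRMT5-shRNA replicate 3. HARS and HARS2 lie head to head, and their spans share 437 bases on opposite strands, yet only HARS was lower in every PRMT5-shRNA library.

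For 14 amino acids the set held a cytosolic gene for that amino acid alone and a mitochondrial gene, and their ratio was followed in each library. Glutamic acid and proline, which share EPRS in the cytosol and have EARS2 and PARS2 in the mitochondrion, were not paired. The shift of the log2 ratio from NC-shRNA to PRMT5-shRNA was towards the cytosolic enzyme in 10 pairs and towards the mitochondrial enzyme in 4, with a median of 0.30. All 10 of the first kind had an ATF4-linked cytosolic gene, and the 4 others were the pairs of phenylalanine, histidine, arginine and valine. This division follows from the log2 fold changes of the single genes given above and is not a separate result. The cysteine pair shifted most. Its log2 ratio of CARS to CARS2 was 0.074, 0.26 and 0.49 with NC-shRNA and 1.01, 1.16 and 1.33 with PRMT5-shRNA. Every ratio in PRMT5-shRNA cells was above every ratio in NC-shRNA cells, and the mean shifted by 0.89 on the log2 scale. On the FPKM scale the cytosolic gene had 1.26 times the level of the mitochondrial gene in NC-shRNA cells and 2.34 times in PRMT5-shRNA cells.

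The tyrosine pair had log2 ratios of 2.85, 3.03 and 2.97 with NC-shRNA and 3.50, 3.48 and 3.46 with PRMT5-shRNA. The serine pair had log2 ratios of 3.8, 3.94 and 3.63 with NC-shRNA and 4.14, 4.31 and 4.33 with PRMT5-shRNA. In both pairs the groups of ratios did not overlap, although the groups of SARS2 alone did, and the shifts were 0.53 and 0.47. The tryptophan, alanine and methionine pairs shifted by 0.42, 0.40 and 0.38, each with no overlap. How often the ratio of any 2 genes in the data shows no overlap was not determined, so these counts have no background share beside them. The pairs of isoleucine and asparagine also had no overlap, at 0.19 and 0.19, and those of leucine and threonine, at 0.36 and 0.25, overlapped. The valine pair went the other way, with log2 ratios of 2.72, 2.54 and 2.54 with NC-shRNA and 2.21, 1.93 and 1.9 with PRMT5-shRNA. All ratios in PRMT5-shRNA cells were lower, a shift of -0.59, which carries the uncertainty of VARS2 given above. The phenylalanine pair, FARSA to FARS2, shifted by -0.43 with no overlap. With FARSB in place of FARSA, a comparison added after the values were seen, the shift was -0.21 and the ratios overlapped, so the result rests on the choice of subunit. The histidine and arginine pairs, at -0.16 and -0.063, overlapped. In NC-shRNA cells the cytosolic gene had the higher FPKM in 13 of the 14 pairs, from 1.08 times for histidine to 13.4 times for alanine, and isoleucine, at 0.765, was the exception.

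**Figure D4:**
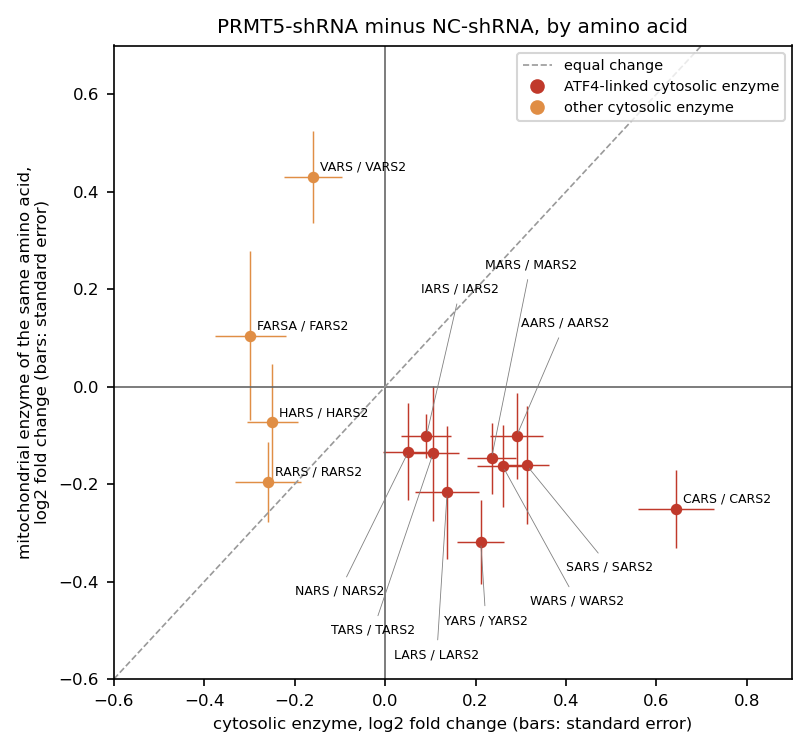
Log2 fold change of the cytosolic enzyme (x axis) against that of the mitochondrial enzyme of the same amino acid (y axis), PRMT5-shRNA minus NC-shRNA, for 14 pairs, with bars for standard errors. The 10 pairs with an ATF4-linked cytosolic gene lie in the lower right, CARS and CARS2 farthest at 0.64 and -0.25, and the 4 others lie left of 0.

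The 3 scaffold proteins hold together a cytosolic complex of 8 synthetase genes (DARS, EPRS, IARS, KARS, LARS, MARS, QARS and RARS). EEF1E1, which also binds elongation factor eEF1, had 25.5, 22.7 and 23.5 CPM with NC-shRNA and 17.6, 19.0 and 21.6 CPM with PRMT5-shRNA. All PRMT5-shRNA libraries were lower, replicate 3 by little, and the log2 fold change was -0.30 (SE 0.106, adjusted p = 0.323 in edgeR). It missed the unadjusted threshold in 6 of 19 alternatives. AIMP1 had 50.4, 44.2 and 50.3 CPM in NC-shRNA and 44.7, 45.1 and 47.8 CPM in PRMT5-shRNA cells. AIMP2 had 56.6, 52.3 and 50.2 CPM in NC-shRNA and 48.9, 52.6 and 48.7 CPM in PRMT5-shRNA cells. The groups of AIMP1 and AIMP2 overlapped, with log2 fold changes of -0.075 and -0.083. Of the 8 enzymes of the complex, 5 had positive and 3 negative values, and the median was 0.069. Past the unadjusted threshold, MARS was higher (1 of 8, beside 6.54% of all genes tested) and KARS and RARS were lower (2 of 8, beside 6.29%).

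The cytosolic enzymes were also divided by the fold of their catalytic domain. EPRS, which charges both glutamic acid and proline tRNAs, was counted in class I only. Of the 10 class I enzymes, 8 had positive log2 fold changes, where 51.2% of all genes tested did, and the median was 0.12. Past the unadjusted threshold 4 were higher and 2 lower, beside 6.54% and 6.29% of all genes. Of the 10 class II enzymes, 5 were positive, 3 higher and 3 lower, with a median of 0.012. Neither fold held the lower or the higher members alone.

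Values by library showed the same division. The median log2 level of the ATF4-linked genes, relative to each gene's mean in NC-shRNA cells, was -0.040, -0.0066 and 0.058 with NC-shRNA and 0.19, 0.22 and 0.22 with PRMT5-shRNA. The median of the 8 other cytosolic genes was 0.055, -0.011 and -0.064 with NC-shRNA and -0.15, -0.14 and -0.26 with PRMT5-shRNA. For the mitochondrial genes it was 0.035, -0.0050 and -0.015 with NC-shRNA and -0.16, -0.11 and -0.20 with PRMT5-shRNA. In each of these lists the PRMT5-shRNA libraries lay on a single side of all NC-shRNA libraries, and PRMT5-shRNA replicate 3 was the lowest in the latter 2. The scaffold medians were 0.091, -0.072 and -0.024 with NC-shRNA and -0.12, -0.10 and -0.12 with PRMT5-shRNA. They did not overlap either, but NC-shRNA replicate 2 came close. Such separation was not particular to these lists. The medians of the accessory list of tRNA genes described later were 0.067, -0.044 and -0.0037 with NC-shRNA and -0.096, -0.051 and -0.087 with PRMT5-shRNA, also with no overlap, and those of all genes tested, between -0.0031 and 0.0064, did not overlap either.

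**Figure D5:**
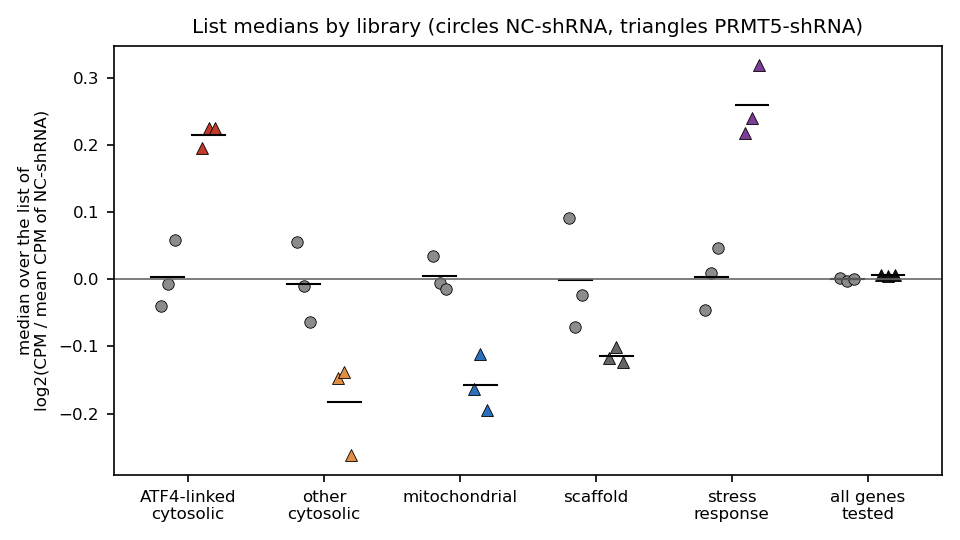
Median over each list of the log2 ratio of a gene's CPM to its mean in NC-shRNA cells, for each of 6 libraries, with circles for NC-shRNA, triangles for PRMT5-shRNA and bars for group means. The ATF4-linked cytosolic genes and the stress response genes lie above 0 in all PRMT5-shRNA libraries, the other cytosolic, mitochondrial and scaffold genes lie below 0 there, and the medians of all genes stay near 0.

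Single libraries moved some of these values. The median of the whole cytosolic class went from 0.099 to 0.055 without NC-shRNA replicate 1. The count of lower cytosolic enzymes went from 5 to 3 without NC-shRNA replicate 1 and also to 3 without PRMT5-shRNA replicate 3, and that of lower mitochondrial enzymes from 4 to 2 without the latter. The share of all genes past the threshold as lower also went down in these fits, from 6.29% to 4.49% and 4.51%.

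The other genes of the ATF4 pathway were followed in a list of 33 stress response genes. Of these, 20 were higher and 2 lower past the unadjusted threshold (60.6% and 6.06%, against 6.54% and 6.29% of all genes tested). In edgeR 2 had an adjusted p under 0.05, against 0.0690% of all genes, and the median log2 fold change was 0.29, beside 0.22 for the ATF4-linked synthetases. DDIT3, the transcription factor CHOP, had 15, 17.1 and 18.9 CPM with NC-shRNA and 40.3, 40.5 and 42.5 CPM with PRMT5-shRNA. It was the highest of the list at 1.28 (adjusted p = 0.0204 in edgeR), followed by NUPR1, a small nuclear stress protein, at 1.09 (adjusted p = 0.0472 in edgeR). SESN2, a leucine sensor that restrains mTORC1, stood at 0.50, and PSPH and PSAT1, enzymes of serine synthesis, at 0.47 and 0.34. In all 5, named for their small p, the groups did not overlap. Over the whole list the groups did not overlap for 19 higher and 2 lower genes (57.6% and 6.06%). Among all genes tested these shares were 11.0% and 10.7%. The synthetase CARS lay above PSPH, PSAT1 and SESN2. ATF4 itself, whose activity is set largely by translation, had 509, 499 and 497 CPM with NC-shRNA and 535, 517 and 508 CPM with PRMT5-shRNA, with overlapping groups and a log2 fold change of 0.052. ATF4 was singled out after its values were seen, as were the 2 lower genes of the list, ATF5 and CEBPB, transcription factors of the same bZIP family. ATF5 had 14.7, 13 and 11.0 CPM with NC-shRNA and 9.67, 9.45 and 4.92 CPM with PRMT5-shRNA. CEBPB had 96.3, 94.9 and 95.4 CPM with NC-shRNA and 84.4, 88.4 and 84.9 CPM with PRMT5-shRNA. Every PRMT5-shRNA library of both was below every NC-shRNA library, at log2 fold changes of -0.68 and -0.15.

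An accessory list held 19 genes that deliver, edit or finish tRNAs. Of these, 2 were higher and 1 lower past the unadjusted threshold (10.5% and 5.26%, near the 6.54% and 6.29% of all genes tested). Their median log2 fold change was -0.068. TSFM, the mitochondrial elongation factor Ts, had 37, 29.7 and 46.1 CPM with NC-shRNA and 54.8, 54.4 and 53.1 CPM with PRMT5-shRNA. Its PRMT5-shRNA libraries were close together and above the scattered NC-shRNA libraries, at a log2 fold change of 0.52 (adjusted p = 0.271 in edgeR). XPOT, which exports tRNA from the nucleus, was at 0.18. TRMU, which thiolates mitochondrial tRNAs, ELAC2, which trims the tails of precursor tRNAs, and PTRH2, a peptidyl-tRNA hydrolase, were at -0.14, -0.17 and -0.17. Of these 5, XPOT, TSFM, TRMU and ELAC2 did not overlap between groups and PTRH2 did. Over the 19 listed genes, 2 higher and 2 lower did not overlap (10.5% each), near the 11.0% and 10.7% of all genes tested. XPOT missed the unadjusted threshold in 7 of 19 and TRMU in 13 of 19 alternatives. The mitochondrial enzyme that amidates the product of EARS2 has the subunits QRSL1, GATB and GATC, singled out after their values were seen. Their log2 fold changes were 0.027, -0.28 and -0.054, and the groups of all 3 overlapped.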

How the data were processed

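The deposited table of estimated counts per gene and library, made by the authors and not normalized, was used for the main tests. The deposited FPKM table of the authors was used for levels and for limma. The submitters' processing notes name cutadapt 1.9, HISAT2 2.0.4, StringTie 1.3.4d and GRCh38, while the paper's methods name the mouse build GRCm38, although all gene IDs in the files are human. The counts were whole numbers, so rounding changed nothing, and in every library more genes had a count of exactly 4 than of 3 or of 5. The cause of this excess was not tested. With counts divided by 4, 17 of 16355 genes (0.104%) had an adjusted p under 0.05 in edgeR.

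Genes with low counts were removed by filterByExpr of edgeR 4.0.16 in R 4.3.3, which left 20295 genes. Libraries were scaled by TMM, and the groups were compared by the quasi-likelihood test of edgeR with Benjamini-Hochberg adjustment over all genes tested. Single genes were also compared by an exact two-sided permutation test, whose smallest p here is 0.10. The pipeline was tested on simulated data, with planted changes larger than that of any member. That test therefore does not show whether changes of the members' size would be found. Gene lengths and positions were taken from GENCODE release 29, where 58552 of the gene IDs were found, and promoters from RefSeq.

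Alternatives were RLE and upper quartile scaling, no filter, a mean of at least 1 CPM, DESeq2 1.42.0, the likelihood ratio test of edgeR, counts divided by 4, limma 3.58.1 on log2(FPKM + 1) or log2(FPKM + 0.1) for genes with a mean FPKM of at least 0.5, limma with no filter, a replicate block, a length correction without and with that block, and leaving out each library. List alternatives left out KARS and GARS, left out MARS, or counted AIMP2 as mitochondrial.

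The members and lists were chosen with earlier results of these data known, and the lists come from general knowledge. Values in all libraries are given for PRMT5, for the 7 cytosolic and 4 mitochondrial members with the smallest p, for the partner of each in the other compartment, for the scaffolds, and for KARS, GARS, MARS, HARS and HARS2. Up to 5 genes with the smallest p were named from the stress response list and up to 5 from the accessory list.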

Additional observations from a re-analysis of the deposited data

How the results depend on the processing

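All 12 ATF4-linked members had positive log2 fold changes in each of the 19 alternative fits, and the median of the 16 mitochondrial members was negative in all of them. RLE and upper quartile scaling moved no list median by more than 0.01. The cause of the changes given here was not tested.

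DESeq2 called 530 genes and 8 members at an adjusted p under 0.05, and the likelihood ratio test of edgeR called 184 genes and 1 member. On log2(FPKM + 1), limma gave 2 lower mitochondrial members and medians of 0.16 for cytosolic, -0.078 for mitochondrial, 0.27 for ATF4-linked and -0.14 for other cytosolic members. In that fit 10.5% of all genes tested were higher and 5.17% lower at an unadjusted p under 0.05. The main edgeR fit had 6.54% and 6.29%. With no filter limma gave the same 4 medians, and 5 genes at an adjusted p under 0.05. On log2(FPKM + 0.1), limma gave 2 higher and 2 lower mitochondrial members and medians of 0.16, -0.086 and 0.28 for cytosolic, mitochondrial and ATF4-linked members. At the same unadjusted threshold, 10.5% of all genes tested on log2(FPKM + 0.1) were higher and 5.09% lower. Log2 fold change and gene length had a Spearman correlation of 0.12 across 20221 genes, which are not independent replicates. The length correction gave medians of 0.069 for cytosolic and 0.18 for ATF4-linked members, the same with the replicate block added.

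The libraries of a replicate share only a number. Over 10821 genes, the correlations between same-numbered libraries were 0.038, -0.026 and 0.113, and only replicate 3 correlated best with its own number. With the replicate block, edgeR called 0 genes at an adjusted p under 0.05, and PRMT5 had a log2 fold change of -1.62 (adjusted p = 0.144). With the length correction and the block together it also called 0 genes, and PRMT5 had -1.62 (adjusted p = 0.152). Over all alternatives the adjusted p of PRMT5 lay between 3.18e-42 and 0.152.

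With 1 library left out, the genes at an adjusted p under 0.05 in edgeR went from 14 to between 8 (without NC-shRNA replicate 2) and 25 (without NC-shRNA replicate 3), with 9 without PRMT5-shRNA replicate 1. The share of all genes past an unadjusted p of 0.05 as lower moved too, between 4.49% and 6.71%. The lower cytosolic members lay between 3 (without NC-shRNA replicate 1, and without PRMT5-shRNA replicate 3) and 5. The higher mitochondrial members lay between 1 and 2 (without NC-shRNA replicate 1), and the lower ones between 2 (without PRMT5-shRNA replicate 3) and 4. The cytosolic median lay between 0.055 (without NC-shRNA replicate 1) and 0.12 (without NC-shRNA replicate 3), with 0.074 without PRMT5-shRNA replicate 3.

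Leaving out the 7 higher cytosolic members, an alternative chosen after seeing the data, gave a cytosolic median of -0.028 and a cytosolic minus mitochondrial difference of 0.11, beside 0.24 with them. Since only members called higher were removed, the lower median follows from the choice and says nothing about stability. With 3 libraries in each group, differences near the spread between libraries could not be resolved.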

Other observations

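The following genes were singled out after their values were seen. UBFD1, which lies opposite EARS2, had 31.7, 35.1 and 134 CPM with NC-shRNA and 33.8, 29.5 and 29.3 CPM with PRMT5-shRNA, with NC-shRNA replicate 3 far above the other 5 libraries. AARSD1, an editing protein related to AARS, had 36.9, 15.3 and 8.92 CPM with NC-shRNA and 33.7, 7.15 and 9.01 CPM with PRMT5-shRNA, where replicate 1 of each group was the highest. ALDH1L2, a mitochondrial enzyme of folate metabolism in the stress response list, had 47.2, 53.6 and 66.7 CPM with NC-shRNA and 82.5, 75.1 and 32.2 CPM with PRMT5-shRNA, with PRMT5-shRNA replicate 3 the lowest of all 6 libraries. MRPS12, a mitochondrial ribosomal protein gene opposite SARS2, had 32.2, 29.8 and 29.7 CPM with NC-shRNA and 22.3, 24.8 and 24.4 CPM with PRMT5-shRNA, a log2 fold change of -0.36.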
